A study of Homo sapiens with 24 samples.

Results

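The inhibitor of DNA binding genes ID1, ID2, ID3 and ID4, the SMAD genes SMAD6, SMAD7 and SMAD9, and BAMBI are transcriptional targets and feedback genes of bone morphogenetic protein (BMP) signalling. The rows of the count table that map to these symbols were taken, which gave 8 genes of 61551, each with a single row. RNA was measured by RNA-seq in the human embryonic stem cell (hESC) line H9, an established line, in 4 genotypes at 2 stages with 3 libraries per group, 24 libraries in all. In hHAR123 cells the human accelerated region HAR123, a noncoding element in an intron of SMG6, was left unedited. In HAR123-KO cells it had been deleted from both alleles with CRISPR-Cas9, and in cHAR123 and mHAR123 cells it had been replaced by the chimpanzee or the mouse ortholog. Cells were collected as untreated hESCs (ESC) or as neuroectoderm (ECTO) after 5 days in medium with knockout serum replacement, 500 ng/ml Noggin, a secreted BMP antagonist, and 10 μM SB431542, an inhibitor of the activin, nodal and TGF-β type I receptors. All neuroectoderm groups therefore received the same BMP antagonist, hHAR123 included. The study used a pair of clones per genotype, and the clone behind each library is not given, so p-values measure the spread between these libraries, which may be technical.

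BMP ligands bind a complex of type I and type II serine/threonine kinase receptors, which phosphorylates SMAD1, SMAD5 and SMAD9. These join SMAD4 and switch on target genes, the ID genes among the fastest of them. ID proteins have a helix-loop-helix but no DNA-binding domain, and they capture E proteins so that proneural factors lose their partners. SMAD6 and SMAD7 are inhibitory SMADs that block the receptors, SMAD6 mainly in the BMP branch and SMAD7 in both the BMP and the TGF-β branch. BAMBI is a pseudoreceptor without a kinase domain that lowers signalling at the membrane. In early ectoderm, low BMP activity accompanies neural fate, and intermediate activity the neural plate border from which the neural crest arises.

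In GRCh38, the build of the count table, ID1 (ENSG00000125968) lies at chr20:31605283-31606515 on the plus strand, ID2 (ENSG00000115738) at chr2:8678845-8684461 on the plus strand, ID3 (ENSG00000117318) at chr1:23557926-23559501 on the minus strand and ID4 (ENSG00000172201) at chr6:19837370-19842197 on the plus strand. SMAD6 (ENSG00000137834) lies at chr15:66702236-66782849 on the plus strand, SMAD7 (ENSG00000101665) at chr18:48919853-48950965 on the minus strand, SMAD9 (ENSG00000120693) at chr13:36844831-36920765 on the minus strand and BAMBI (ENSG00000095739) at chr10:28677510-28682932 on the plus strand. Among their exons, those of ID2 alone overlapped exons of another gene, with 145 bases, 6.55% of the ID2 exon bases, shared with ID2-AS1 on the opposite strand. ID2-AS1 had 2 to 149 counts per library. Whether reads were counted by strand is not given in the sources used here, so reads from these bases could belong to either gene.

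The 250 bases before the start of 5 of the genes are printed to show the promoters of members that moved in opposite directions (ID1, ID3 and ID4) and of the members whose window held the SMAD palindrome (SMAD6) or the GC-rich BMP element (BAMBI). The sequences are those of RefSeq on GRCh38.p14, in which all 8 genes were matched by symbol, and each is written 5′ to 3′ on the strand of the gene.
ID1 promoter, chr20:31605039-31605288, plus strand: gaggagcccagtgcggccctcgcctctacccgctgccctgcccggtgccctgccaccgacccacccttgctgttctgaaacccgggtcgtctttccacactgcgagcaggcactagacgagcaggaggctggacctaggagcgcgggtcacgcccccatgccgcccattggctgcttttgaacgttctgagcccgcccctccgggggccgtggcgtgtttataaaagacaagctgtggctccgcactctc
ID3 promoter, chr1:23559502-23559751, minus strand: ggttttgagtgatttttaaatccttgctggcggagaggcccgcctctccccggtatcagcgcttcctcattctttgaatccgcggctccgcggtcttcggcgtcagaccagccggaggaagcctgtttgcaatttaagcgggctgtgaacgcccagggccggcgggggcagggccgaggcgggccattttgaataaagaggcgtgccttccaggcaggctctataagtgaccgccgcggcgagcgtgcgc
ID4 promoter, chr6:19837120-19837369, plus strand: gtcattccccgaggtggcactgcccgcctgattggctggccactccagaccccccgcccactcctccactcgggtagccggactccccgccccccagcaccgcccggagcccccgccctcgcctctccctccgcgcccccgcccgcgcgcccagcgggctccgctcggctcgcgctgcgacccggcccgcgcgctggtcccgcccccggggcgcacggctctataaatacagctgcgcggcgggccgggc
SMAD6 promoter, chr15:66701986-66702235, plus strand: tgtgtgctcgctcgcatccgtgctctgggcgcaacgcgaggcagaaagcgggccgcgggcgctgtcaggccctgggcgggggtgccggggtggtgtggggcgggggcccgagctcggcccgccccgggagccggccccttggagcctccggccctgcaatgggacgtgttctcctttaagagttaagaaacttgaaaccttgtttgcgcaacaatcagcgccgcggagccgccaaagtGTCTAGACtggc
BAMBI promoter, chr10:28677271-28677520, plus strand: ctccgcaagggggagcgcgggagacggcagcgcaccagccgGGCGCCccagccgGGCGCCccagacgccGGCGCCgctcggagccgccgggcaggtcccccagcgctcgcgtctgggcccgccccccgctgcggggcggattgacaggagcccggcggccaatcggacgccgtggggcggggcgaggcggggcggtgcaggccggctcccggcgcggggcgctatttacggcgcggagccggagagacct
Capitals mark the GC-rich BMP element GGCGCC and the SMAD palindrome GTCTAGAC, both searched on both strands. The window of BAMBI held GGCGCC at 3 places, with first bases 209, 196 and 181 bases before the start. The window of SMAD6 held GTCTAGAC at a single place, 12 bases before the start. Neither motif was found in the windows of the other 6 genes, and the short SMAD site GTCT, which overlaps the palindrome, was found in at least a window of each of the 8. Sequence outside these windows was not searched, so a motif absent from a window may still lie elsewhere near the gene. Among 35116 promoter windows of this length, 16.4% held GGCGCC, 0.182% held GTCTAGAC and 77.5% held GTCT.

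Total counts were 23334732 to 35198684 per library in hESCs and 21022748 to 25978892 in neuroectoderm, and the 8 genes had 22 to 2638 counts in a library. Within a group, the coefficient of variation of a member had a median of 4.63% and ran from 0.553% to 26.0%. Over 24728 genes, 23 of the 24 libraries were nearest to a library of their own group, the exception being replicate 3 of cHAR123 in hESCs. The labelled stages held against their markers. Summed over 6 pluripotency genes, the level was 4230 to 4505 CPM, counts divided by the library total and scaled alike, in hESCs and 1619 to 2298 in neuroectoderm. Over 6 neuroectoderm genes it was 29.3 to 42.4 CPM in hESCs and 510 to 1120 in neuroectoderm. HAR123 itself is noncoding, so exon counts could not check its deletion or replacement.

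The labels of both replacement genotypes were in doubt at the neuroectoderm stage. The base means that accompany the study's neuroectoderm comparison of cHAR123 could be computed from the columns labelled mHAR123 and not from those labelled cHAR123, and those of mHAR123 from the columns labelled cHAR123. In hESCs, base means and labels matched for both genotypes. The names below are those of the columns, "labelled cHAR123" and "labelled mHAR123" stand for them in neuroectoderm, and results that join both stages were also computed with these labels exchanged.

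Differences were tested with the edgeR quasi-likelihood F test on the counts of the compared groups alone. A gene was called where the Benjamini-Hochberg adjusted p was under 0.01 and the log2 fold change beyond 1 in either direction, and "the adjusted p alone" refers to the first condition without the second. All 8 genes passed the filter on low counts in every comparison. Levels are given in CPM, and log2 fold changes carry their standard error.

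Loss of HAR123 went with higher ID1, ID2 and ID3 and lower ID4 in neuroectoderm. Of the 8 genes, 6 were called between HAR123-KO and hHAR123, with 5 higher (ID1, ID2, ID3, SMAD9 and BAMBI) and ID4 lower. Across all genes tested, 9.45% were called in this comparison, 4.92% higher and 4.52% lower. SMAD6 was past the adjusted p alone, as were 44.1% of all genes tested, and SMAD7 was not past it. The median log2 fold change of the 8 genes was 1.07, against 0.00092 over all genes tested. RNA came from bulk cultures, in which more cells of a type and more RNA per cell cannot be told apart.

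**Figure D1:**
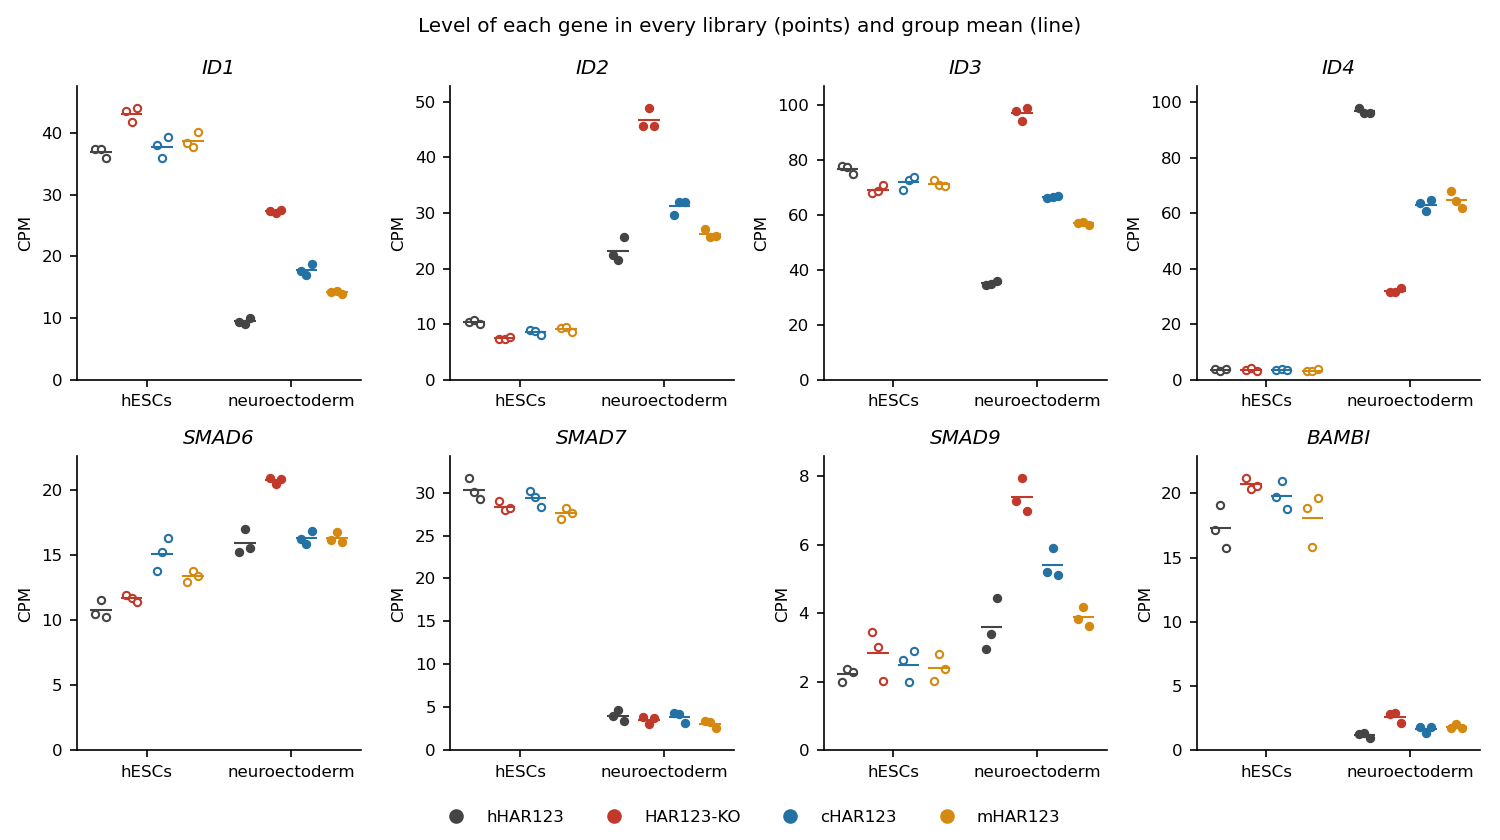
Level of each of the 8 genes in CPM (vertical axes, from 0) in each of the 24 libraries, with open points for hESCs, filled points for neuroectoderm, colours for genotypes as labelled and a line at each mean of 3. In neuroectoderm, the HAR123-KO libraries held the highest ID1, ID2, ID3, SMAD6 and SMAD9 and the lowest ID4, at 31.7 to 33.1 CPM against 96.3 to 98.0 in hHAR123.

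ID1 was at 9.42, 9.09 and 9.99 CPM in the hHAR123 neuroectoderm libraries and at 27.3, 27.0 and 27.5 CPM in those of HAR123-KO. The groups were far apart, and the HAR123-KO libraries lay within a range narrower than that of hHAR123. The log2 fold change was 1.57 ± 0.07, or 2.98-fold (adjusted p = 9.81e-25). ID3, the member with the most counts in hESCs, was at 34.6, 34.9 and 36.0 CPM in hHAR123 and at 97.8, 94.4 and 99.1 CPM in HAR123-KO. Every HAR123-KO library exceeded every hHAR123 library, by 1.52 ± 0.04 on the log2 scale (2.86-fold, adjusted p = 2.89e-33). ID2 was at 22.5, 21.6 and 25.7 CPM in hHAR123 and at 45.7, 48.9 and 45.6 CPM in HAR123-KO. Its groups did not overlap either, with a log2 fold change of 1.06 ± 0.06 (adjusted p = 1.2e-21), close to the threshold of 1 and with a 95% interval of 0.94 to 1.17 that included it.

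ID4, the family member known for its part in neural progenitors and astrocytes, went the other way. It was at 98.0, 96.3 and 96.3 CPM in hHAR123 neuroectoderm and at 31.7, 31.7 and 33.1 CPM in HAR123-KO. The highest HAR123-KO library thus lay far below the lowest hHAR123 library. Its log2 fold change was -1.54 ± 0.04, or 2.90-fold lower (adjusted p = 1.72e-33).

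Among the SMAD genes, SMAD9, a receptor-activated SMAD whose own transcription answers to BMP, was at 2.95, 3.39 and 4.44 CPM in hHAR123 and at 7.28, 7.95 and 6.99 CPM in HAR123-KO. The spread within hHAR123 was wide, and the groups did not overlap. The log2 fold change was 1.09 ± 0.13 (adjusted p = 3.69e-10). Without replicate 1 of hHAR123, the lowest of its libraries, the value was 0.96 and the call was lost, though the adjusted p stayed under the threshold (1.18e-08). SMAD6, the inhibitory SMAD of the BMP branch, was at 15.3, 17.1 and 15.5 CPM in hHAR123 and at 20.9, 20.5 and 20.9 CPM in HAR123-KO. The groups were apart but close, with a log2 fold change of 0.43 ± 0.07 (adjusted p = 9.03e-07) that stayed under the fold threshold. SMAD7, the inhibitory SMAD shared with the TGF-β branch, was at 3.95, 4.67 and 3.37 CPM in hHAR123 and at 3.83, 3.04 and 3.8 CPM in HAR123-KO. These ranges overlapped, and the difference of -0.12 ± 0.15 on the log2 scale had a 95% interval of -0.41 to 0.17 (adjusted p = 0.523).

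BAMBI was the least counted member in neuroectoderm, with 22 to 33 counts per library in hHAR123 and 53 to 70 in HAR123-KO. This was 1.28, 1.36 and 0.939 CPM in hHAR123 and 2.80, 2.91 and 2.17 CPM in HAR123-KO. Its groups did not overlap, and its log2 fold change of 1.18 ± 0.21 (adjusted p = 4.05e-06) had the widest standard error of the 8.

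Markers of other cell types moved with this comparison. Neural crest markers (7 genes) summed to 1666 to 1691 CPM in HAR123-KO neuroectoderm against 200 to 207 in hHAR123, with 7 of 7 called higher and none at 3 counts or fewer in every library. The neuroectoderm list (6 genes) summed to 510 to 519 CPM against 1036 to 1062, with 3 of 6 called lower, and the pluripotency list (6 genes) to 1619 to 1649 against 2187 to 2298, with 1 of 6, SOX2, called lower. The part of these cell types in the ID, SMAD9 and BAMBI differences was not tested. Amnion and trophoblast genes (6) summed to 1.94 to 3.25 CPM in HAR123-KO and 1.37 to 1.65 in hHAR123, with CDX2 and CGA at 3 counts or fewer in every library. Mesoderm genes (6) summed to 2.08 to 2.66 and 2.81 to 3.09, with TBXT, MIXL1 and HAND2 as low in both groups and EOMES in HAR123-KO alone. Surface ectoderm genes (6) summed to 217 to 227 CPM against 272 to 279. Of these, KRT5 and KRT14 were at 3 counts or fewer in both groups, and TP63 in hHAR123 alone. Endoderm genes (5) summed to 51.3 to 55.3 against 47.6 to 48.6, with SOX17, FOXA2 and GATA6 at 3 counts or fewer in both groups and GATA4 in HAR123-KO alone.

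**Figure D2:**
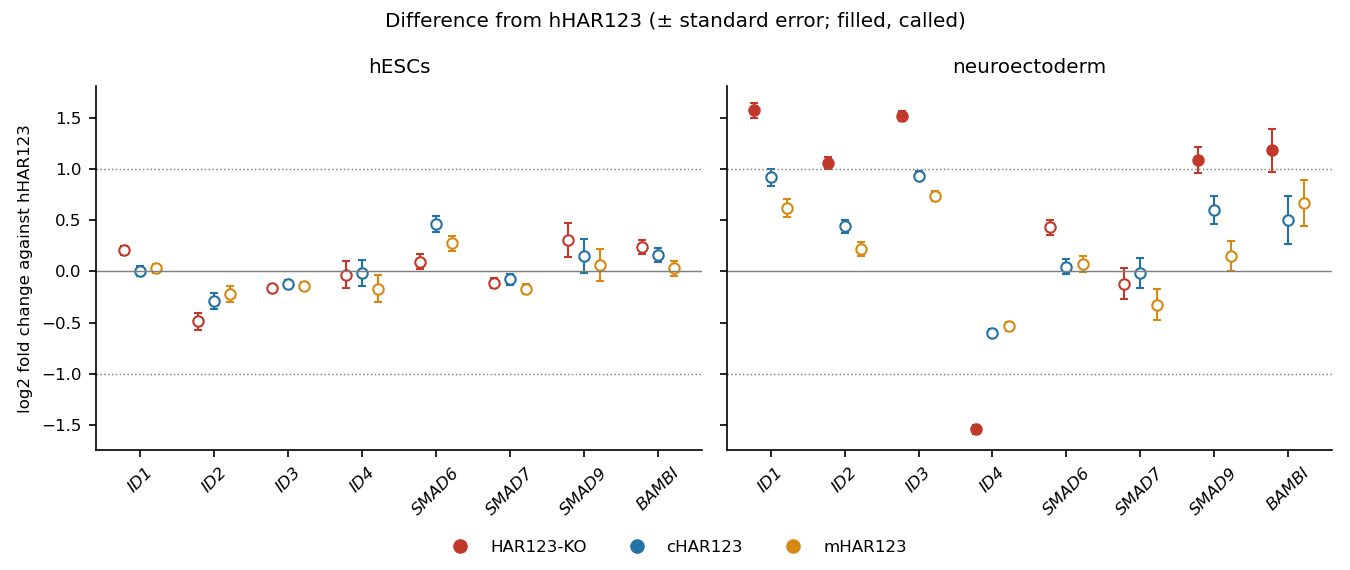
Log2 fold change against hHAR123 (vertical axis) of each gene (horizontal axis) in HAR123-KO, cHAR123 and mHAR123 as labelled, in hESCs (left) and neuroectoderm (right); bars are standard errors, filled points are called and dotted lines mark -1 and 1. In hESCs all points lie between -0.49 and 0.46, and in neuroectoderm HAR123-KO reaches 1.57 for ID1 and -1.54 for ID4.

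In neuroectoderm, the mean of both ortholog replacements lay between those of hHAR123 and HAR123-KO for each ID gene. ID1 was at 17.6, 16.9 and 18.8 CPM in those labelled cHAR123 and at 14.3, 14.3 and 13.9 CPM in those labelled mHAR123. ID2 was at 29.7, 31.9 and 32.0 CPM in the former and at 27.2, 25.6 and 25.9 CPM in the latter. For ID1 the 4 genotypes did not overlap at this stage, whereas for ID2 the highest hHAR123 library reached the range of those labelled mHAR123. ID3 was at 66.2, 66.7 and 66.8 CPM in the libraries labelled cHAR123 and at 57.1, 57.6 and 56.3 CPM in those labelled mHAR123. ID4 was at 63.7, 60.8 and 64.8 CPM and at 68.0, 64.4 and 62.1 CPM, respectively. The order of ID3 was thus hHAR123, labelled mHAR123, labelled cHAR123 and HAR123-KO from low to high, and ID4 ran in the opposite order, with both replacement groups overlapping.

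Against hHAR123, the libraries labelled cHAR123 had 0 of the 8 genes called by edgeR and 0 by DESeq2, where 0.978% of all genes tested were called. At an unadjusted p under 0.05 there were 6, and 5 were past the adjusted p alone, as were 9.89% of all genes tested. ID1 and ID3 came closest to the fold threshold, with log2 fold changes of 0.92 ± 0.08 (adjusted p = 5.75e-12) and 0.93 ± 0.05 (adjusted p = 6.82e-20). ID2 differed by 0.44 ± 0.06 and ID4 by -0.60 ± 0.04. SMAD9, at 5.20, 5.92 and 5.11 CPM, lay above all hHAR123 libraries, by 0.60 ± 0.14 on the log2 scale (adjusted p = 0.00156). The others, SMAD6, SMAD7 and BAMBI, differed by 0.04 ± 0.07, -0.01 ± 0.15 and 0.50 ± 0.23 and were not past the adjusted p. Neural crest markers summed to 361 to 367 CPM in these libraries, with 6 of 7 called higher than in hHAR123, and their part in these differences was not tested.

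The libraries labelled mHAR123 likewise had 0 of 8 genes called by edgeR and by DESeq2 against hHAR123, with 1.03% of all genes tested called. At an unadjusted p under 0.05 there were 6, and 3 were past the adjusted p alone, a condition that 14% of all genes tested met. These 3 were ID1 at 0.62 ± 0.08 (adjusted p = 4.26e-07), ID3 at 0.74 ± 0.05 (8e-15) and ID4 at -0.54 ± 0.04 (6.04e-13) on the log2 scale. ID2 at 0.22 ± 0.07 (adjusted p = 0.0145) and BAMBI at 0.66 ± 0.23 (adjusted p = 0.0293) were not. SMAD9 was at 3.85, 4.18 and 3.63 CPM, within the range of hHAR123, and SMAD6, at 16.2, 16.8 and 16.0 CPM, also overlapped it. The neural crest markers summed to 394 to 397 CPM in these libraries, with 5 of 7 called higher, and here too their part was not tested.

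SMAD6 was at 16.2, 15.8 and 16.9 CPM in the libraries labelled cHAR123, so all 3 genotypes that carry a form of HAR123 overlapped for this gene. SMAD7 was at 4.40, 4.18 and 3.14 CPM in the libraries labelled cHAR123 and at 3.39, 3.27 and 2.64 CPM in those labelled mHAR123. No pair of genotypes was past the adjusted p for SMAD7 in neuroectoderm. BAMBI was at 1.84, 1.35 and 1.84 CPM and at 1.73, 2.07 and 1.73 CPM, respectively, below all HAR123-KO libraries.

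Compared with HAR123-KO, the libraries labelled cHAR123 had 0 of the 8 genes called by edgeR and by DESeq2, where 7.61% of all genes tested were called, and 7 at an unadjusted p under 0.05. The same number, 7, was past the adjusted p alone, as were 39% of all genes tested. ID4 was higher by 0.96 ± 0.04 on the log2 scale (adjusted p = 3.28e-28), just under the fold threshold. ID1, ID2 and ID3 were lower, with log2 fold changes of -0.63 ± 0.06, -0.60 ± 0.05 and -0.56 ± 0.03, and so were SMAD6 at -0.36 ± 0.07, SMAD9 at -0.46 ± 0.11 and BAMBI at -0.65 ± 0.19. In the libraries labelled mHAR123, ID4 was called, 1 of the 8 genes, where 7.33% of all genes tested were called. Its log2 fold change was 1.03 ± 0.05 (adjusted p = 7e-24), and without replicate 1 of the libraries labelled mHAR123 it was 0.9996, which ended the call. ID1, ID2, ID3, SMAD6 and SMAD9 were lower in the same comparison and past the adjusted p alone, from -0.33 ± 0.07 for SMAD6 to -0.93 ± 0.06 for ID1, a condition that 36.5% of all genes tested met. In both comparisons 6 of 7 neural crest markers were called lower than in HAR123-KO (361 to 367 and 394 to 397 CPM in sum, against 1666 to 1691). Of the 6 neuroectoderm genes, 5 were called higher in the libraries labelled cHAR123 (1091 to 1120 CPM in sum) and 4 in those labelled mHAR123 (979 to 1004), against 510 to 519 CPM in HAR123-KO. The part of these cell types in the differences of the members was not tested.

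The replacement genotypes differed little from each other. In neuroectoderm 0 of the 8 genes were called between them by edgeR and by DESeq2, with 0.261% of all genes tested called, and 5 had an unadjusted p under 0.05. Past the adjusted p alone were 3 of 8 against 4.2% of all genes tested. ID1, ID2 and ID3 were lower in the libraries labelled mHAR123 than in those labelled cHAR123, by log2 fold changes of -0.30 ± 0.07 (adjusted p = 0.00341), -0.23 ± 0.06 (0.00548) and -0.20 ± 0.04 (0.000311). If the labels are exchanged, these signs turn.

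In hESCs, no comparison between genotypes called any of the 8 genes, with edgeR or DESeq2. Between HAR123-KO and hHAR123, 5 had an unadjusted p under 0.05 and 4 were past the adjusted p alone, where 1.18% of all genes tested were called and 12.4% were past the adjusted p alone. ID1 was at 37.4, 37.4 and 35.9 CPM in hHAR123 and at 43.5, 41.8 and 44.1 CPM in HAR123-KO, a log2 difference of 0.21 ± 0.04 (adjusted p = 0.000613). ID2 was at 10.4, 10.7 and 9.97 CPM and at 7.33, 7.35 and 7.73 CPM, lower in HAR123-KO by a log2 fold change of -0.49 ± 0.08 (adjusted p = 1.75e-05). ID2 therefore differed from hHAR123 in opposite directions at the 2 stages. ID3 was at 77.9, 77.4 and 74.9 CPM in hHAR123 and at 67.9, 68.9 and 71.1 CPM in HAR123-KO (-0.16 ± 0.04, adjusted p = 0.000664). ID4 was low in all hESC libraries, at 3.09 to 4.15 CPM, and the groups overlapped. BAMBI was at 17.1, 19.1 and 15.7 CPM in hHAR123 and at 21.2, 20.4 and 20.6 CPM in HAR123-KO, a log2 difference of 0.24 ± 0.06 (adjusted p = 0.00586). With other settings or a library left out, the adjusted p rose to 0.0895 for BAMBI and 0.0119 for ID3, above the threshold of 0.01.

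No member was called in the replacement hESCs, and against hHAR123 the largest difference in both genotypes was that of SMAD6. Against hHAR123, cHAR123 had 0 called, 4 at an unadjusted p under 0.05 and 2 past the adjusted p alone (0.85% and 16.3% of all genes tested were called and past the adjusted p alone, respectively). For mHAR123 these numbers were 0, 4 and 3 (1.23% and 19.2%). SMAD6 was past the adjusted p alone in both, at 10.5, 11.5 and 10.3 CPM in hHAR123, 13.8, 15.2 and 16.3 in cHAR123 and 13.0, 13.8 and 13.4 in mHAR123. Its log2 fold changes were 0.46 ± 0.07 (adjusted p = 9.24e-06) and 0.27 ± 0.07 (adjusted p = 0.00292), while HAR123-KO, at 12, 11.7 and 11.4 CPM, differed from hHAR123 by 0.10 ± 0.08. ID1 was at 38.1, 35.9 and 39.4 CPM in cHAR123 and 38.4, 37.7 and 40.1 in mHAR123, and ID2 at 9.02, 8.74 and 8.16 and at 9.25, 9.55 and 8.54 CPM. For ID3 the values were 69.3, 73.0 and 73.8 CPM in cHAR123 and 72.9, 70.9 and 70.8 in mHAR123. SMAD7 ran from 26.9 to 31.7 CPM, SMAD9 from 1.99 to 3.47 CPM and BAMBI from 15.7 to 21.2 CPM over all hESC libraries.

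Against HAR123-KO in hESCs, cHAR123 had 0 called and 2 past the adjusted p alone, ID1 (-0.19 ± 0.05) and SMAD6 (0.38 ± 0.08), with 3 at an unadjusted p under 0.05 and 0.271% of all genes tested called (8.09% past the adjusted p alone). For mHAR123 these counts were 0, 1 (ID1, -0.17 ± 0.05) and 4, with 0.244% and 6.91% over all genes tested. Between mHAR123 and cHAR123 they were 0, 0 and 1, with 0.158% and 0.783% over all genes tested.

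Differentiation to neuroectoderm changed most members, and in each genotype 5 of the 8 genes were called between the stages. All genes tested were called at 45.9% in hHAR123, 41.1% in HAR123-KO, 42.7% in cHAR123 and 41.9% in mHAR123, so a majority of members stands beside a large share of the transcriptome. Past the adjusted p alone were 7, 8, 7 and 7 members in this order, against 80.1%, 79.2%, 78.9% and 78.6% of all genes tested. In hHAR123, ID1 fell by 2.25 on the log2 scale (SE 0.07, adjusted p = 1.06e-28), ID3 fell by 1.42 (SE 0.04, 1.53e-27), SMAD7 fell by 3.21 (SE 0.09, 1.02e-29) and BAMBI fell by 4.14 (SE 0.13, 1.16e-27). ID4 rose by 4.44 ± 0.06, or 21.7-fold (adjusted p = 4.7e-39). ID2 at 0.88 ± 0.07 and SMAD6 at 0.28 ± 0.08 were past the adjusted p alone, and SMAD9, at 0.40 ± 0.16, was not. Neuroectoderm medium held the BMP antagonist and the TGF-β receptor inhibitor together, so the part of each in these changes was not tested.

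Without HAR123 the stage change of the ID genes was not the same. ID1 fell by 0.86 (SE 0.05) in HAR123-KO, which kept it under the fold threshold, and ID3, which fell in hHAR123, was higher in neuroectoderm by 0.28 ± 0.04 on the log2 scale. ID2 rose by 2.44 ± 0.07 (adjusted p = 7.03e-41) and ID4 by 2.96 ± 0.08 (adjusted p = 2.08e-39). SMAD7 fell by 3.19 (SE 0.09) and BAMBI fell by 3.18 (SE 0.10), both called. SMAD9 rose by 1.21 ± 0.13 (adjusted p = 2.36e-12), a call that was lost at 0.99 without replicate 3 of HAR123-KO in hESCs, the lowest of its 3 libraries. SMAD6 was higher by 0.63 ± 0.07, past the adjusted p alone.

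**Figure D3:**
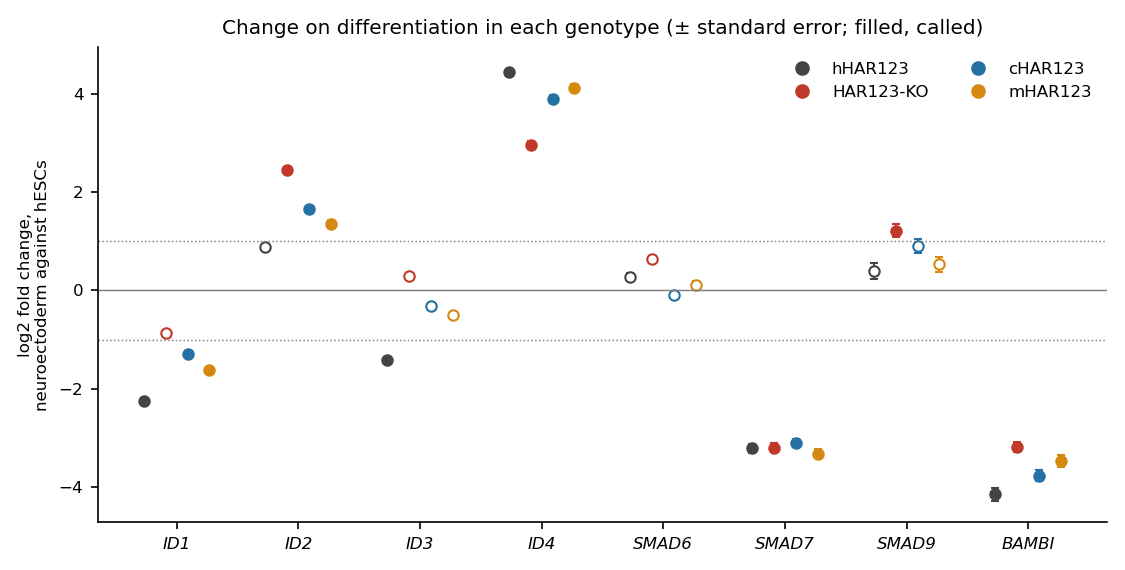
Log2 fold change from hESCs to neuroectoderm (vertical axis) of each gene (horizontal axis) in the 4 genotypes as labelled, with standard errors, filled points for called genes and dotted lines at -1 and 1. SMAD7 lies at -3.10 to -3.32 in all 4 genotypes, while ID3 runs from -1.42 in hHAR123 to 0.28 in HAR123-KO.

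In the replacement genotypes, the stage changes of the ID genes lay between those of hHAR123 and HAR123-KO with either assignment of the labels. As labelled, ID1 fell by 1.30 in cHAR123 and by 1.62 in mHAR123, ID2 rose by 1.65 ± 0.07 and 1.36 ± 0.07, and ID4 rose by 3.89 ± 0.07 and 4.11 ± 0.07, all called. ID3 at -0.32 ± 0.04 and -0.50 ± 0.04 was past the adjusted p alone. SMAD7 fell by 3.10 in cHAR123 and by 3.32 in mHAR123, and BAMBI fell by 3.76 and by 3.47, all called. SMAD9 at 0.89 ± 0.14 and 0.53 ± 0.15 was past the adjusted p alone, and without replicate 3 of cHAR123 in hESCs, its highest library there, the first of these was 1.01 and called. With the neuroectoderm labels exchanged, the same 5 genes were called in each genotype, with ID1 at -1.59 for cHAR123 and -1.33 for mHAR123, ID2 at 1.43 and 1.57, and ID4 at 3.97 and 4.04 on the log2 scale.

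To ask whether the effect of each genotype depended on the stage, the difference between its neuroectoderm and its hESC fold change against hHAR123 was tested over 12 libraries. For HAR123-KO, 4 of the 8 genes were called, where 7.87% of all genes tested were. These were the ID genes, with differences of 1.36 ± 0.08 for ID1 (adjusted p = 3.01e-19), 1.54 ± 0.10 for ID2 (5.16e-18), 1.68 ± 0.06 for ID3 (1.4e-29) and -1.51 ± 0.13 for ID4 (2.54e-14) on the log2 scale. BAMBI at 0.94 ± 0.21, SMAD9 at 0.78 ± 0.22 and SMAD6 at 0.33 ± 0.10 were past the adjusted p alone, as were 32.5% of all genes tested, and SMAD7 at -0.01 ± 0.15 was not. BAMBI passed the fold threshold at 1.01 to 1.06 when replicate 3 of hHAR123 in hESCs, replicate 2 of hHAR123 in neuroectoderm or replicate 3 of HAR123-KO in neuroectoderm was left out.

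For cHAR123, 1 of the 8 genes was called in this test, against 0.797% of all genes tested. This gene was ID3, at 1.06 ± 0.06 (adjusted p = 1.75e-18), and with the neuroectoderm labels exchanged its value was 0.88 and the call was lost. ID1 at 0.92 ± 0.09, ID2 at 0.74 ± 0.10, ID4 at -0.58 ± 0.12 and SMAD6 at -0.41 ± 0.11 were past the adjusted p alone, a condition that 8.71% of all genes tested met. With exchanged labels, SMAD6 at -0.37 was no longer past it (adjusted p = 0.0113). For mHAR123, 0 of 8 were called by edgeR and by DESeq2, with 5 at an unadjusted p under 0.05 and 0.967% of all genes tested called. ID3 came closest at 0.90 ± 0.06 (adjusted p = 1.34e-16), and with the labels exchanged it was 1.09 and called. The 3 genes past the adjusted p alone were ID1, ID2 and ID3, where 12.8% of all genes tested were. The 3 tests share the hHAR123 libraries.

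The makeup of the ID family was compared on a scale per exon length, CPM per kilobase of exon (RPKM), because the 4 genes differ in length. In hHAR123 hESCs the ID genes summed to 86.8 ± 1.83 RPKM (SD, n = 3), of which ID3 held 59.1% ± 0.0692 and ID1 34.5% ± 0.0757. ID2 held 5.38% and ID4 1.1% there. In hHAR123 neuroectoderm the sum was 66.7 ± 1.73 RPKM, and ID4 (37.5% ± 1.11) and ID3 (35.2% ± 0.400) held most of it.

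**Figure D4:**
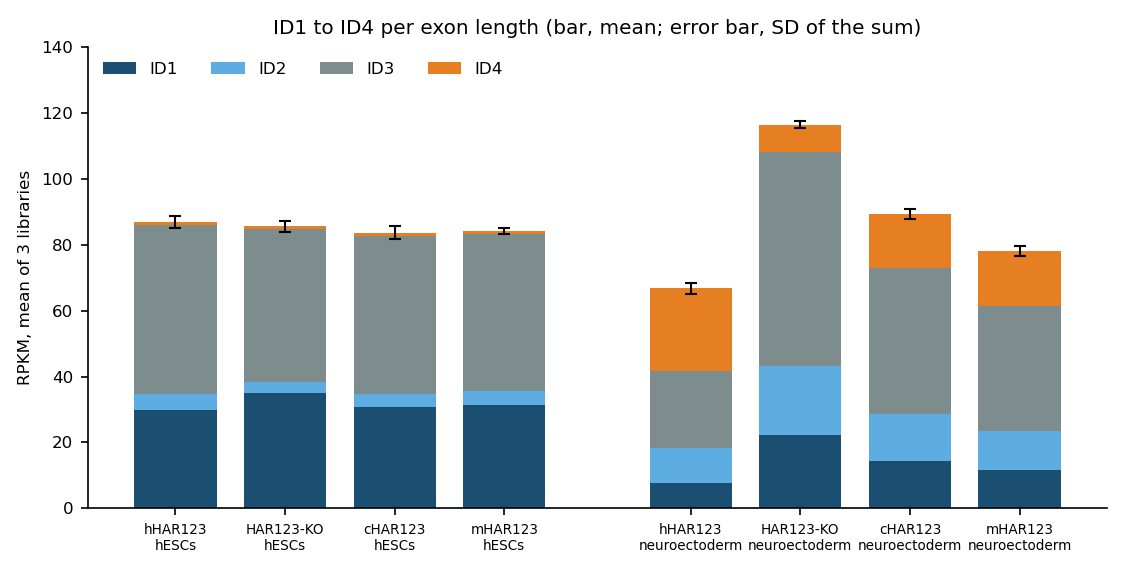
Mean level of ID1 to ID4 in RPKM (vertical axis, from 0), stacked for each genotype as labelled and stage, with the SD of the sum over 3 libraries as error bar. The 4 hESC groups sum to 83.7 to 86.8 RPKM, and in neuroectoderm the sums run from 66.7 in hHAR123 to 116 in HAR123-KO, with ID4 as 37.5% and 7.13% of them.

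In HAR123-KO neuroectoderm the ID genes summed to 116 ± 1.16 RPKM, with ID3 at 55.7% ± 0.883, ID1 at 19.0% ± 0.0665, ID2 at 18.1% ± 0.897 and ID4 at 7.13% ± 0.122. The share of ID4 was thus lower in HAR123-KO, but it remained above its share in hESCs (1.02% to 1.14%). The sums of the libraries labelled cHAR123 and mHAR123 were 89.3 ± 1.56 and 78.2 ± 1.49 RPKM, with ID4 at 18.2% ± 0.441 and 21.4% ± 0.591. These shares rest on the same counts as the fold changes above and were not tested again. Per exon length, SMAD7 stood at 7.0 to 7.68 RPKM and BAMBI at 8.09 to 9.68 RPKM in hESCs by group mean, above SMAD6 at 1.26 to 1.77 and SMAD9 at 0.381 to 0.487 RPKM. In neuroectoderm SMAD6 was the highest of these in each genotype, at 1.87 to 2.43 RPKM.

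The other genes of the pathway were described from lists and not tested as sets, with the counts of called genes in HAR123-KO against hHAR123 neuroectoderm, beside the 9.45% called over all genes tested. Upstream of the members, 5 of 7 BMP ligands were called higher and 1 lower, with a median log2 fold change of 1.95. The lower one was BMP6, named after its value was seen. Of all ligands called, 5 averaged at least 1 CPM in these groups. BMP4 had 0.936 ± 0.0951 CPM in hHAR123 and 20.4 ± 0.498 CPM in HAR123-KO (mean ± SD of 3 libraries, here and below), BMP5 at 2.73 ± 0.406 and 36.4 ± 1.41 CPM, and BMP7 at 13.4 ± 0.832 and 28.4 ± 0.778 CPM. Of 8 BMP antagonists, 6 were tested and 3 were called higher. NOG, which encodes the antagonist that was also added to the medium as protein, was at 3.27 ± 0.685 and 20.8 ± 1.10 CPM. The others were BMPER, a secreted modulator of BMPs, at 1.56 ± 0.366 and 6.15 ± 0.560 CPM, and GREM1, which binds BMP ligands, at 0.784 ± 0.0613 and 1.90 ± 0.202 CPM.

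**Figure D5:**
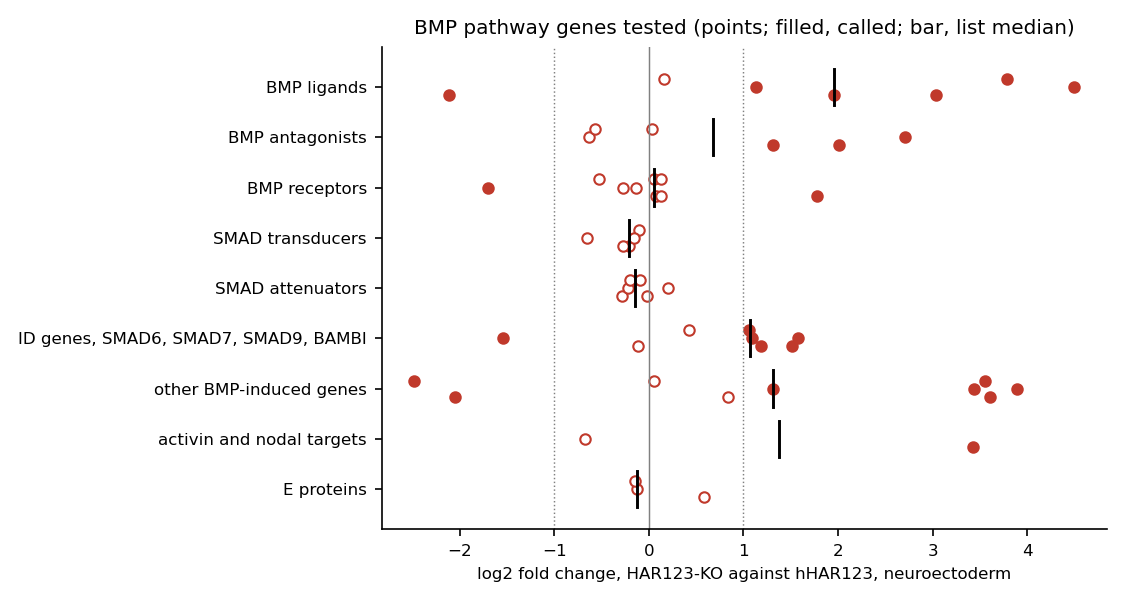
Log2 fold change between HAR123-KO and hHAR123 neuroectoderm (horizontal axis) of each tested gene of 9 lists (vertical axis), with filled points for called genes, a bar at each list median and dotted lines at -1 and 1. BMP ligands, the ID, SMAD and BAMBI genes and the other BMP-induced genes hold most filled points, with medians of 1.95, 1.07 and 1.32, while no SMAD transducer, SMAD attenuator or E protein is called.

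The receptors and SMADs stand between ligand and target. Among 9 receptors and co-receptors 1 was called higher and 1 lower. The former was ACVRL1, which averaged under 1 CPM in these groups and was named after its value was seen. The latter was the co-receptor RGMA at 323 ± 12.4 CPM in hHAR123 and 96.1 ± 3.64 CPM in HAR123-KO. Over all genes tested, 44.1% were past the adjusted p alone in this comparison, the share to hold beside the counts that follow. None of 5 SMAD transducers (SMAD1, SMAD2, SMAD3, SMAD4 and SMAD5) was called, although 4 were lower past the adjusted p alone, with a list median of -0.21. None of 6 SMAD attenuators (SMURF1, SMURF2, SKI, SKIL, TOB1 and NEDD4L), which degrade or repress SMADs, was called, with 1 higher and 2 lower past the adjusted p alone. The 3 E proteins TCF3, TCF4 and TCF12, the partners that ID proteins capture, had 0 called by edgeR, with 1 higher and 2 lower past the adjusted p alone.

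Of 10 other genes known to be induced by BMP, 9 were tested, 5 called higher and 2 lower, with a median of 1.32. Those lower were GATA2 and DLX5, named after their values were seen. Of all genes called on this list, 4 averaged at least 1 CPM in HAR123-KO and hHAR123 neuroectoderm. MSX1, a border homeobox gene, was at 3.82 ± 0.351 CPM in hHAR123 and 45 ± 1.37 CPM in HAR123-KO, and TFAP2A, a transcription factor of border and crest, at 5.80 ± 0.828 and 65.4 ± 2.71 CPM. DLX3, a homeobox gene of non-neural ectoderm, was at 1.30 ± 0.258 and 3.13 ± 0.686 CPM. Of 5 activin and nodal targets 2 were tested, and PMEPA1, a feedback inhibitor of TGF-β signalling, was called at 0.186 ± 0.128 and 2.01 ± 0.245 CPM. MSX1 and TFAP2A also belong to border and crest programmes, so they are not separate from the neural crest markers above.

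In the libraries labelled cHAR123 the ligand list had 3 of 7 called higher than in hHAR123 and in those labelled mHAR123 2 of 7, with medians of 0.66 and 0.51, and the other BMP-induced genes 2 of 8 and 1 of 8 tested, with medians of 0.34 and 0.55. Of all genes tested in these comparisons, 0.978% were called in either direction for cHAR123 as labelled and 1.03% for mHAR123 as labelled. BMP4 was at 2.56 ± 0.240 CPM in the former libraries and 2.82 ± 0.634 CPM in the latter. All 3 comparisons share the hHAR123 libraries.

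Genes whose pattern was most like that of a member were sought over the 24 libraries among 10947 genes with at least 10 CPM on average, by Pearson correlation of log2 CPM. The points share their libraries and fall into 2 stages, so they are not independent, and the values are a description with no test. ID3 was most like FOXD3 (r = 0.953), which is also on the neural crest list, and KIT (r = 0.944). ID1 was most like SLC35A4 (0.983) and SLC19A1 (0.982), ID2 like MDK (0.993) and CPE (0.992), and ID4 like PTK2 (0.997) and NF1 (0.997). SMAD6 was most like TSNARE1 (0.943) and MICAL3 (0.939), SMAD9 like NDEL1 (0.944) and HEG1 (0.939), SMAD7 like SCG3 (0.997) and PDZD8 (0.996), and BAMBI like CALR (0.995) and NCLN (0.995). No other member was among the 2 nearest genes of a member, although SMAD9, below 10 CPM in every library, was not among the genes compared.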

How the data were processed

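The authors deposited a table of raw, unnormalized counts, made from ribosomal RNA-depleted, directional, paired-end libraries by aligning to GRCh38 with STAR 2.5.2b and counting exon reads of Ensembl genes with featureCounts. Reads removed at these steps cannot be seen. ANK2, whose row was split over 3 lines, was left out. The members and lists were chosen with earlier results of these data known. Tests used edgeR 4.0.16 in R 4.3.3 (filterByExpr, TMM, quasi-likelihood F test, Benjamini-Hochberg adjustment over all genes tested), with each pair of groups fitted alone and 12 libraries for each stage difference, and the fits were checked on simulated counts. The alternatives were DESeq2 1.42.0, its size factors, no filter, a joint fit of all 24 libraries, a block for the replicate number, a looser adjusted p of 0.05, and leaving out each library. CPM use library totals, and correlations a prior count of 2. All 8 members are named. Of each pathway list, the text names the 2 called genes of largest and the 1 of smallest fold change with at least 1 CPM on average. Gene positions are from the count table and promoters from RefSeq, and intervals cover the fitted error only. Replicates differed by more than sampling noise (chi-square per degree of freedom 1.41 to 5.53), and all 24 were kept as separate.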

Additional observations from a re-analysis of the deposited data

Results flagged for a closer look

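Effects of HAR123-KO on the ID genes differed between the stages by a test of the difference itself. On the log2 scale, the neuroectoderm effect exceeded the hESC effect by 1.36 for ID1, 1.54 for ID2 and 1.68 for ID3, and for ID4 it was lower, at -1.51. Neural crest markers summed to 1666 to 1691 CPM in HAR123-KO neuroectoderm and 49.95 to 52.8 CPM in HAR123-KO hESCs, and their part was not tested. For cHAR123 as labelled, the effect on ID3 differed between the stages by 1.06, and the neuroectoderm labels of cHAR123 and mHAR123 are in doubt.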

How the results depend on the processing

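The number of members called was the same as in the main analysis under DESeq2, DESeq2 size factors, no filter, a joint fit of all 24 libraries, an adjusted p under 0.05 and the replicate block, in every comparison where these were run. With the neuroectoderm labels of cHAR123 and mHAR123 exchanged, an alternative chosen after seeing the data, the stage-difference test called 0 members for cHAR123 and 1 for mHAR123. Without single libraries, 0 to 1 members were called between mHAR123 and HAR123-KO neuroectoderm, and 5 to 6 between HAR123-KO and hHAR123 neuroectoderm. The HAR123-KO stage change had 4 to 5 called. Some omissions added a call, for SMAD9 in the cHAR123 stage change and for BAMBI in the HAR123-KO stage difference. Replicate numbers showed no clear pairing of the libraries. In their deviations from group means, 36 same-numbered pairs within a stage correlated at -0.0227 to 0.0378. The 72 pairs of different numbers correlated at -0.0388 to 0.0279. Of the 3 numbers, 11 of 24 libraries correlated best with their own. With the replicate block, 6 members remained called between HAR123-KO and hHAR123 neuroectoderm, and no call of a member changed. The adjusted p alone was less stable. With settings changed or a library left out, it exceeded 0.01 for some members past it in the main fits. In hESCs it reached 0.0467 for ID2 in cHAR123 against hHAR123, and 0.0164, 0.045 and 0.0563 for ID3, SMAD6 and SMAD7 in mHAR123. Against HAR123-KO, it reached 0.0535 for ID1 and 0.0146 for SMAD6 in cHAR123, and 0.0715 for ID1 in mHAR123.

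Signs turned only for values that were not called in any setting. ID1 between cHAR123 and hHAR123 hESCs was -0.00679 with DESeq2, -0.00537 without a filter and -0.0168 with all libraries in one fit. The stage difference of the HAR123-KO effect on SMAD7 was 0.0127 with DESeq2, 0.000788 with its size factors and 0.0048 without a filter. With exchanged labels, that of SMAD7 was -0.222 for cHAR123 and 0.175 for mHAR123. The cause was not tested.
Leaving out single libraries gave these log2 ranges. In hESCs, ID4 ran from -0.138 to 0.0768 between HAR123-KO and hHAR123, from -0.0929 to 0.0278 between cHAR123 and hHAR123, and from -0.083 to 0.134 between cHAR123 and HAR123-KO. ID1 ran from -0.0314 to 0.0379 between cHAR123 and hHAR123 and from -0.00925 to 0.0605 between mHAR123 and cHAR123, where ID3 ran from -0.0563 to 0.00225. SMAD9 ran from -0.0558 to 0.178 between mHAR123 and hHAR123, from -0.349 to 0.0032 between cHAR123 and HAR123-KO, and from -0.222 to 0.0456 between mHAR123 and cHAR123, and BAMBI from -0.0416 to 0.114 between mHAR123 and hHAR123. In neuroectoderm, SMAD7 ran from -0.236 to 0.0132 between HAR123-KO and hHAR123 and from -0.122 to 0.125 between cHAR123 and hHAR123. In the stage-difference tests, SMAD7 ran from -0.119 to 0.131 for HAR123-KO, from -0.0313 to 0.216 for cHAR123 and from -0.236 to 0.0134 for mHAR123, and SMAD9 from -0.0112 to 0.294 for mHAR123. In neuroectoderm, the highest adjusted p over all settings was 0.0352 for SMAD9 between cHAR123 and hHAR123 and 0.0359 for BAMBI between cHAR123 and HAR123-KO. Between mHAR123 and cHAR123 it was 0.0492 for ID1 and 0.0538 for ID2. In the stage changes it was 0.0743 for SMAD6 in hHAR123 and 0.0547 for SMAD9 in mHAR123. For the stage differences it was 0.038 for SMAD6 and 0.0264 for SMAD9 in HAR123-KO, and 0.0534 for SMAD6 in cHAR123. Depth limits BAMBI and SMAD9 most, with as few as 22 and 54 counts in a library.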
